A study of Drosophila melanogaster with 3 samples.

Results

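The genes examined were 9 members of the forkhead family of Drosophila melanogaster other than croc: slp1, slp2, CHES-1-like, foxo, jumu, FoxK, FoxP, bin and fkh. They were taken by symbol, from 13768 protein-coding genes that could receive a peak. A peak belonged to a gene when the nearest protein-coding transcription start site (TSS) to its summit, the position of highest enrichment, was that gene's and lay within 10 kb. By this rule 21 of the 3225 assigned peaks of the series' conservative list fell to the members. They lay at 6 members, and FoxK, FoxP and fkh had none. Of all protein-coding genes, 15.7% had a conservative peak. The members were chosen with earlier results of these data known, so their counts and signals are given as a description, without a test.

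The series is a chromatin immunoprecipitation sequencing (ChIP-seq) experiment on transgenic flies carrying croc, itself a forkhead gene, as a fusion with a green fluorescent protein, eGFP (croc-eGFP). All 3 samples are biological replicates of 1 group: whole embryos aged 0 to 18 h, immunoprecipitated after sonication to 200 to 800 bp. The labels describe the antibody as one against GFP, while their antibody field names croc, so whether the unfused croc protein could also be recovered cannot be told from them. The insertion was made to target croc, and the sources used here do not say what else the strain carries. Whole embryos mix every tissue, so a peak does not say in which cells croc-eGFP was bound, and peak lists hold no expression by which the tissue label could be checked. There is no second condition, and control libraries were not analysed here.

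Forkhead proteins bind DNA through a winged-helix domain, usually at variants of a short T-rich core sequence. The family divides early embryonic patterning, gut, muscle, heart and nervous system tasks among its members, and croc is known for its part in the anterior head and the pharynx. Many developmental regulators sit in gene networks in which members of one family bind near each other's genes, at promoters and at distant enhancers in introns or between genes.

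The DNA under the members' summits is shown for the strongest peaks of 5 of the 6 members and for the other summits that held the forkhead core, because the core is the sequence this protein family is known for. The core searched was TRTTTAY, where R is A or G and Y is C or T, on both strands, within 50 bp of the summit. Each stretch is 101 bp, read 5′ to 3′ on the plus strand of dm6 and centred on the summit, with matches in capitals. Matches were found at slp1 (chr2L:3827824-3827924), at the promoter-side foxo peak (chr3R:14056496-14056596) and at the CHES-1-like intronic peak 10991 bp inside the gene (chrX:7698344-7698444), which held 2. The strongest peaks of CHES-1-like (chrX:7706958-7707058), foxo (chr3R:14053517-14053617), bin (chr3L:6989282-6989382) and jumu (chr3R:10357081-10357181) had no match in this window. Each of these peaks had at least 1 match within 100 bp of the summit.
slp1 downstream peak: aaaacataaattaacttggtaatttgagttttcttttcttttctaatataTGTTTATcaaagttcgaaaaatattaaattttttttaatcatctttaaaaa
foxo peak beside the TSS: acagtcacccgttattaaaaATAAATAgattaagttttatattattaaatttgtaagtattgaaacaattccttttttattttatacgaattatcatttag
CHES-1-like intronic peak with 2 matches: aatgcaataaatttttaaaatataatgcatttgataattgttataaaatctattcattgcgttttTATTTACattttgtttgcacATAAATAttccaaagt
CHES-1-like strongest peak: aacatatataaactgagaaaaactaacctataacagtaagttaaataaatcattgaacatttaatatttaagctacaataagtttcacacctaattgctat
foxo strongest peak: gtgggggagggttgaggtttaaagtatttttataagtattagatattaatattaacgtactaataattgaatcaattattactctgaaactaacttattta
bin strongest peak: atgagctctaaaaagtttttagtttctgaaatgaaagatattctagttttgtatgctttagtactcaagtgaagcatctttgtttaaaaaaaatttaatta
jumu strongest peak: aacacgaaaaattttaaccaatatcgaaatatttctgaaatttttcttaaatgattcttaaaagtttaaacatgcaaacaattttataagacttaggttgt

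Over all 21 member summits, 3 (14.3%) had TRTTTAY within 50 bp, against 23.6% of the 3644 conservative summits on the 6 chromosome arms. The share was 14.1% at positions 500 bp to the left of all summits and 13.6% in windows of the same length on 19252 annotated transcript starts. With 100 bp on each side, 10 member summits (47.6%) had a match, against 39.1% of all summits, 26.1% of the left positions and 27.5% of the transcript starts. The members were thus below all summits in the narrow window and above them in the wide one. The strict core TGTTTAC, which TRTTTAY contains, was in no member window at 50 bp and in 2 of 21 at 100 bp, at jumu and at the weaker downstream peak of slp2. Over all conservative summits its shares were 2.44% and 5.24%. A match describes these letters only, and a window without one says nothing about what binds there.

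The strongest member peak, 4307 bp upstream of slp2, is shown for another reason (chr2L:3832483-3832583). Its summit region was the least AT-rich among the members' strongest peaks, at 57.4% AT against a median of 69.3% over all summits, and it held GGTCACACT 2 times, in capitals.
slp2 strongest peak: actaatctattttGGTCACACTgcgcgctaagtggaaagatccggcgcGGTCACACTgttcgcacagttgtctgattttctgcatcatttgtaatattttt
This word was chosen after the sequence was read. It was found within 50 bp of 15 of 3644 conservative summits (0.412%), at 0.0823% of the left positions and at 3.64% of transcript starts. The slp2 summit was the only one of the 3644 with 2 or more copies in that window. Of the other words searched for comparison, TATCGATA (a core-promoter element) was at no member summit, CAGGTAG (the type bound by the early activator Zelda) was at 1, in the 5′ UTR of CHES-1-like, and GAGAGAG (the GAGA type) was at 1, in an intron of bin. Over all summits these words had shares of 0.933%, 0.329% and 1.04%. The bin peak with GAGAGAG was weak, with a signal of 3.17, and lay beside a stronger bin summit.

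Replicates 1, 2 and 3 had thresholded lists of 3198, 2433 and 1822 peaks (mean 2484 ± 689 SD, n = 3). Signal values below are the authors' values per peak, made by a peak caller on a scale that is not stated. Signals are set beside each other only within a list, and across lists a peak is given by its percentile, the share of the list with a lower signal. The replicate lists differ in length, so a percentile and its SD over replicates depend on list length as well as on rank. The file listing derives the conservative list (3650 peaks) from the alignments of all 3 replicates. It was contained in a ranked list that compared intervals of replicates 1 and 2, so that a summit in both of these was partly a condition of being listed. Of the further series lists, 1 compared replicates 2 and 3 and another replicates 1 and 3.

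By replicate, 6, 7 and 7 of the 9 members had an assigned peak in replicates 1, 2 and 3 (mean 6.67 ± 0.577 SD, n = 3). Over all protein-coding genes the shares were 14.8%, 12.2% and 9.62%. The 6 genes with a conservative peak had one in every replicate, and the seventh gene in replicates 2 and 3 was fkh. Member peaks numbered 17, 14 and 14 (mean 15.0 ± 1.73 SD, n = 3), while the full list of replicate 3 was 0.570 times the length of that of replicate 1. Of the 21 conservative peaks, 12 (57.1%) had a summit within 250 bp in all 3 replicates, against 43.6% of all conservative peaks. Another 3 were found in 2 replicates, 4 in 1 replicate and 2 in none. The 12 included all 7 peaks of CHES-1-like. The rest were the strongest peak of each other member with a conservative peak, so 1 locus made up most of the 12. The 21 peaks were also traced in the further series lists, by identical interval and summit. By this stricter rule 17 (81.0%) were present in all 3, against 68.7% of all conservative peaks.

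**Figure D1:**
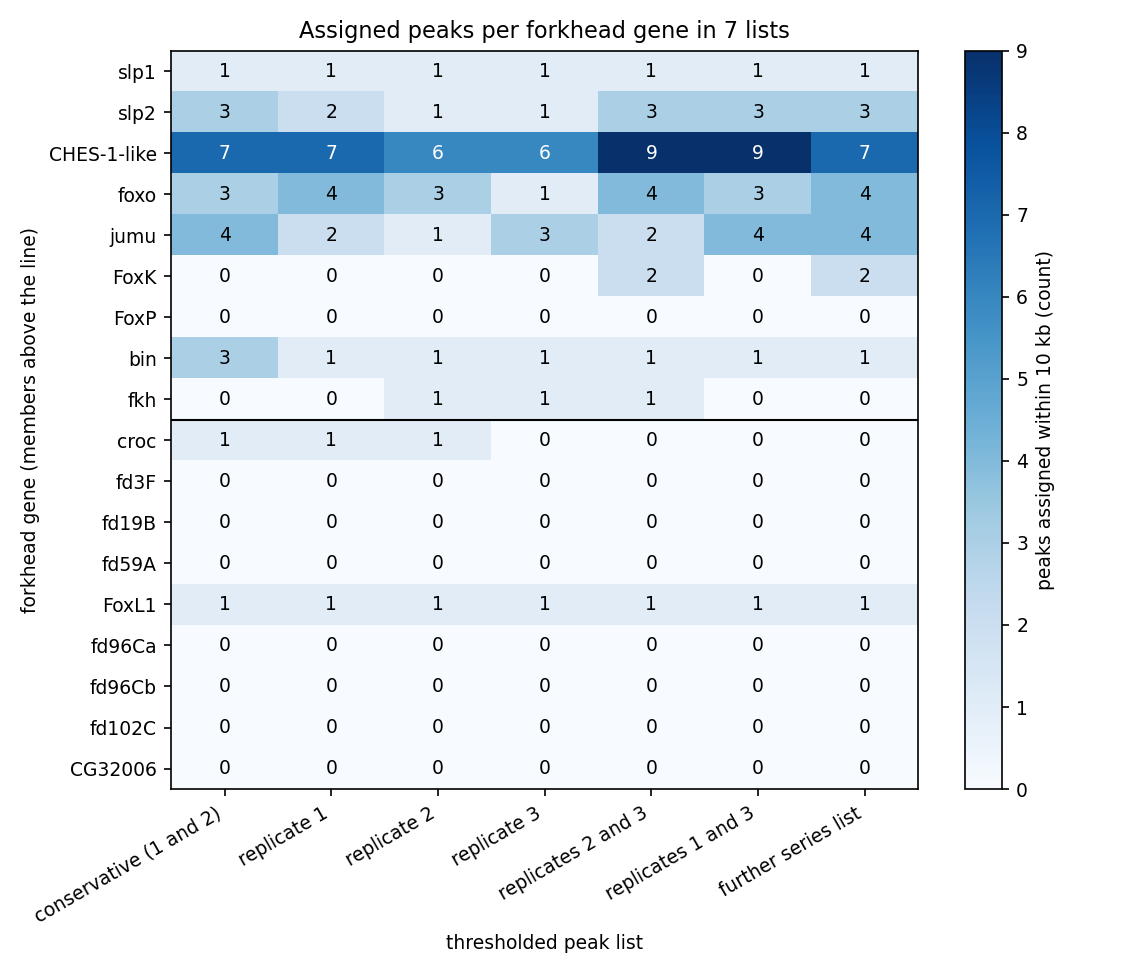
Number of peaks assigned within 10 kb (colour and printed count) to each of 18 forkhead genes (rows, members above the line) in the conservative list, the 3 replicate lists and the 3 further series lists (columns). The rows of slp1, slp2, CHES-1-like, foxo, jumu and bin are filled in every list, FoxK and fkh are filled in some, and FoxP is at 0 throughout.

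The 2 sloppy paired genes, slp1 and slp2, are neighbours on arm 2L that encode closely related forkhead repressors of the pair-rule and segment polarity stages and of the head. The slp1 gene (FBgn0003430, 2L 3825675 to 3827099, plus strand) had 1 peak, intergenic, with its summit at 3827874, 2199 bp downstream of its TSS and 8966 bp from that of slp2. Its signal of 317.7 was rank 856 of 3650. In replicates 1, 2 and 3 the signal was 128.7, 119.0 and 69.5, and the percentile was 74.1, 64.4 and 42.9 (mean 60.5 ± 16.0 SD, n = 3). The peak was in the upper part of the lists of replicates 1 and 2 and below the middle of the list of replicate 3. Its ranks were 828 of 3198, 868 of 2433 and 1041 of 1822, so list length enters this fall. It was the narrowest member interval, at 125 bp, and the most AT-rich, at 84.2%.

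The strongest member peak of the list lay between the 2 genes, 4307 bp upstream of the slp2 TSS and 6858 bp from the slp1 TSS (interval 3832372 to 3832663, summit 3832533). It was assigned to slp2 (FBgn0004567, 2L 3836840 to 3839185, plus strand) and had a signal of 971.6, rank 97 of 3650. Replicate signals were 442.5, 325.9 and 211.4, at ranks 68 of 3198, 124 of 2433 and 107 of 1822. The percentiles of 97.9, 94.9 and 94.2 (mean 95.7 ± 1.97 SD, n = 3) put it among the highest peaks of each replicate, with the smallest spread of the member peaks found in all 3. Of all genes, 88 had a stronger strongest peak. A further slp2 peak lay 4357 bp downstream of the TSS (summit 3841197, signal 142.3, rank 2513). It was in the thresholded list of replicate 1 alone (signal 58.7, percentile 27.1). In the ranked lists its score, which the authors scaled from reproducibility, was 114 in replicate 2 and 599 in replicate 3, below the lowest score of the thresholded lists, 830.

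Among regulators of mesoderm and heart, bin (biniou, a FoxF-type factor of the visceral mesoderm) had 3 peaks around a short gene (FBgn0045759, 3L 6990622 to 6994447, plus strand). The strongest was intergenic, 1290 bp upstream of the TSS (interval 6989140 to 6989523, summit 6989332), with a signal of 439.2 and rank 487. In replicates 1, 2 and 3 its signal was 163.6, 166.0 and 102.3, at percentiles of 82.6, 80.5 and 71.5 (mean 78.2 ± 5.89 SD, n = 3). All 3 replicates had it in their upper part, at ranks 558, 475 and 520. The intronic bin peak 2979 bp downstream of the TSS (signal 118.5, rank 2945) was in no thresholded replicate list. Its scores in the ranked lists were 133, 401 and 71, all under 830, and it was in none of the further series lists.

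CHES-1-like, a FoxN-type gene known with jumu for the divisions of cardiac progenitors, held 7 of the 21 peaks, the most of any member. The gene is 27048 bp long (FBgn0029504, X 7682338 to 7709385, minus strand) with 4 annotated TSS, and all 7 summits lay inside it. Of all genes, 11 had 7 or more assigned peaks, and the most was 9. One summit was in the 5′ UTR, 215 bp inside the gene from its first TSS, and the other 6 were in introns, 2377, 3788, 8987, 10991, 12109 and 12328 bp inside. All 7 had a summit within 250 bp in each replicate. The peak 12109 bp inside (signal 3.60) matched the same replicate summits as its stronger neighbour 12328 bp inside.

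The strongest CHES-1-like peak was the intronic one 2377 bp inside the gene (7706841 to 7707142, summit 7707008), with a signal of 787.6 and rank 149. In replicates 1, 2 and 3 the signal was 345.7, 297.6 and 162.0, at percentiles of 96.0, 94.0 and 89.1 (mean 93.0 ± 3.55 SD, n = 3). It was high in every replicate and lowest in replicate 3. Next came the peak 10991 bp inside, whose sequence held 2 cores (signal 529.9, rank 345). Its percentiles were 89.5, 86.8 and 72.1 (mean 82.8 ± 9.38 SD, n = 3). The peak 8987 bp inside had a signal of 443.3 and percentiles of 85.5, 74.6 and 69.9 (mean 76.7 ± 8.05 SD, n = 3).

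At the first CHES-1-like TSS, the 5′ UTR peak (summit 7709170) had a signal of 394.1, rank 593. Its percentiles of 81.8, 71.1 and 79.3 (mean 77.4 ± 5.59 SD, n = 3) were lowest in replicate 2. The peak 3788 bp inside had a signal of 372.2 and percentiles of 78.2, 70.7 and 63.1 (mean 70.7 ± 7.55 SD, n = 3). Its ranks of 698, 713 and 673 hardly changed, so its percentile fell as the lists shortened. These 5 summits were all well above the middle of each replicate list. The peak 12328 bp inside, 353 bp from another CHES-1-like TSS, was not: its signal was 194.4 and its percentiles 18.1, 40.6 and 3.08 (mean 20.6 ± 18.9 SD, n = 3). Replicate 3 held it near the bottom of its list. If every TSS is counted and not only those of protein-coding genes, 2 CHES-1-like peaks were nearer to that of another gene and 19 of 21 stayed with the members.

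For jumu (jumeau, a FoxN-type modifier of chromatin silencing that also acts in cardiac progenitors), 4 peaks lay in the introns of the gene (FBgn0015396, 3R 10350182 to 10361612, plus strand). The strongest was 6949 bp downstream of the TSS (10357042 to 10357210, summit 10357131), with a signal of 275.8 and rank 1055. Its replicate signals were 87.0, 86.0 and 85.7, at percentiles of 54.6, 44.2 and 60.1 (mean 53.0 ± 8.05 SD, n = 3). It stood near the middle of each list, and replicate 3, the shortest list, had it highest. The peak 1267 bp downstream (signal 144.5, rank 2463) was in the thresholded list of replicate 3 alone, at percentile 30.3. Its scores in the ranked lists of replicates 1 and 2 were 622 and 669. The peak 3930 bp downstream (signal 133.7, rank 2673) was in replicates 1 and 3, at percentiles 19.9 and 5.49, and had a score of 415 in the ranked list of replicate 2.

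**Figure D2:**
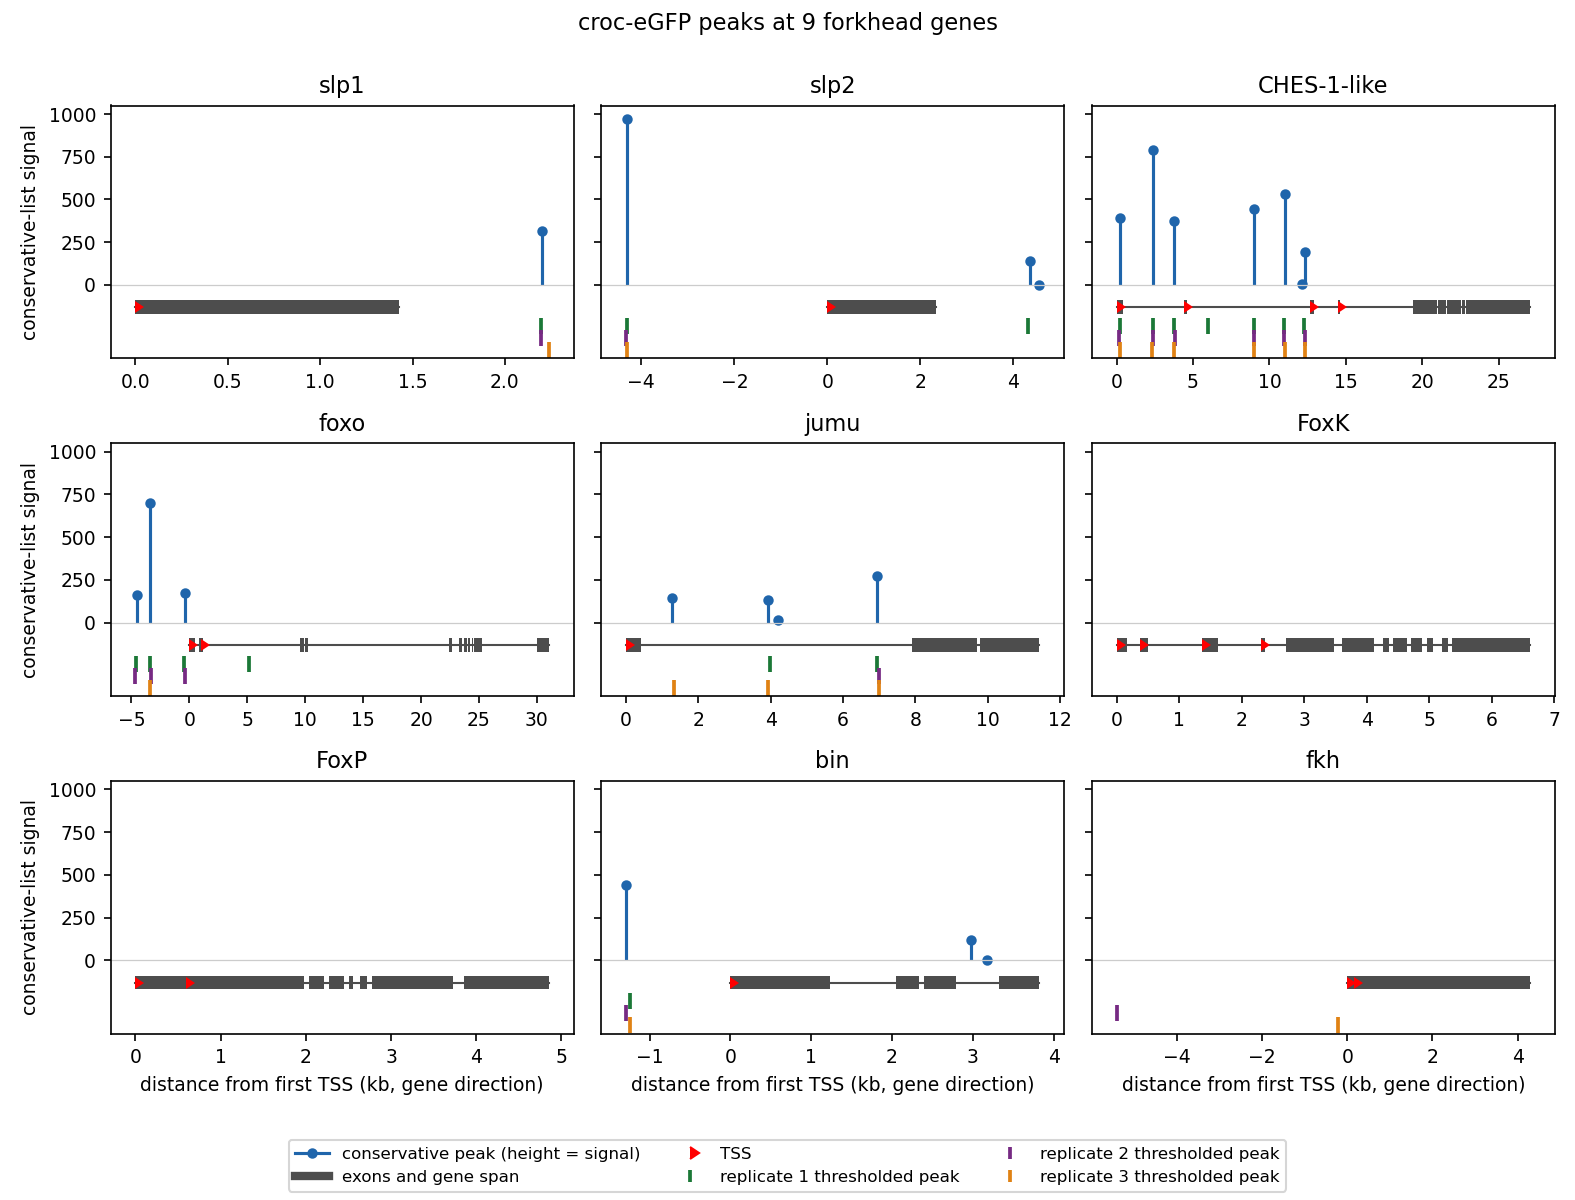
Peaks along the 9 member genes: distance from the first TSS in the direction of the gene (kb) against the signal in the conservative list (stems), with exons (bars), start sites (triangles) and peaks of each replicate list (ticks below). The tallest stems of slp2, foxo and bin stand upstream of the genes, all stems of CHES-1-like and jumu stand inside, and FoxK, FoxP and fkh have no stem.

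The foxo gene encodes the forkhead effector that insulin signalling holds out of the nucleus. It is the longest member (FBgn0038197, 3R 14056945 to 14087978, plus strand, 31034 bp), and its 3 conservative peaks were intergenic, all upstream. The strongest was 3378 bp upstream (14053465 to 14053720, summit 14053567), with a signal of 698.3 and rank 193. In replicates 1, 2 and 3 its signal was 297.4, 296.0 and 115.0, at percentiles of 94.7, 94.0 and 77.9 (mean 88.8 ± 9.49 SD, n = 3). Replicates 1 and 2 had it at nearly the same height in their lists and replicate 3 had it lower.

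The other foxo peaks were missing from the thresholded list of replicate 3. The one 399 bp upstream, at the promoter and with a core in its window (signal 174.1, rank 1949), was at percentile 23.6 in replicate 1 and 26.1 in replicate 2. The one 4538 bp upstream (signal 161.1, rank 2147) was at 48.4 and 2.84. Their scores in the ranked list of replicate 3 were 386 and 95. Inside the gene, 1 intronic summit, 4189 bp from its nearest TSS, was in the list of replicate 1 alone (signal 41.9, rank 3066 of 3198).

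Of the pathway in which foxo acts, 12 genes were listed and 11 matched the annotation; Tor was not analysed here. A conservative peak was assigned to 3 of the 11, beside 15.7% of all genes. InR, the insulin receptor gene, had 4, the strongest intronic and 640 bp from a TSS (signal 322.5, rank 831), in all 3 replicates. Pi3K92E, a lipid kinase subunit gene, had 1 in its 5′ UTR (signal 145.9), found in 2 replicates.

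The 3 members without a conservative peak differed in the other lists. fkh (forkhead, the FoxA-type founder of the family, known for gut and salivary gland; FBgn0000659, 3R 28580976 to 28585264, minus strand) had 1 peak in replicate 2 and 1 in replicate 3, at different places. The replicate 3 summit lay 227 bp upstream of a TSS (signal 47.2, score 1000, rank 1696 of 1822). Ranked summits lay 133 bp upstream in replicate 1, with a score of 541, and 214 bp upstream in replicate 2, with a score of 318. The list that compared replicates 2 and 3 had a peak there, 215 bp upstream, with a signal of 114.1. The replicate 2 summit, 5415 bp upstream, had a signal of 50.2 and rank 2383 of 2433. Both fkh peaks were near the bottom of their lists.

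FoxK, a forkhead gene that also carries a forkhead-associated domain and acts in the midgut (FBgn0036134, 3L 11114169 to 11120783, minus strand, 4 TSS), was in no thresholded replicate list. A summit 312 bp upstream of one of its TSS, in an intron, was in the list that compared replicates 2 and 3 and in one further series list, with a signal of 131.8 in both. Ranked summits stood nearby in each replicate, at 375, 318 and 262 bp upstream, with scores of 457, 123 and 53, and replicate 1 had another 50 bp upstream of a TSS with a score of 650. FoxP, known for nervous system roles in learning and decision making (FBgn0262477, 3R 9726020 to 9730872, minus strand), had 1 ranked summit in replicate 1, 1033 bp downstream of a TSS, with a signal of 14.9 and a score of 33. It had none in the ranked lists of replicates 2 and 3. The nearest conservative summits at any distance from a TSS of FoxK, FoxP and fkh were 19866, 19203 and 14396 bp away and belonged to APP-BP1, trbd and Hrb98DE.

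**Figure D3:**
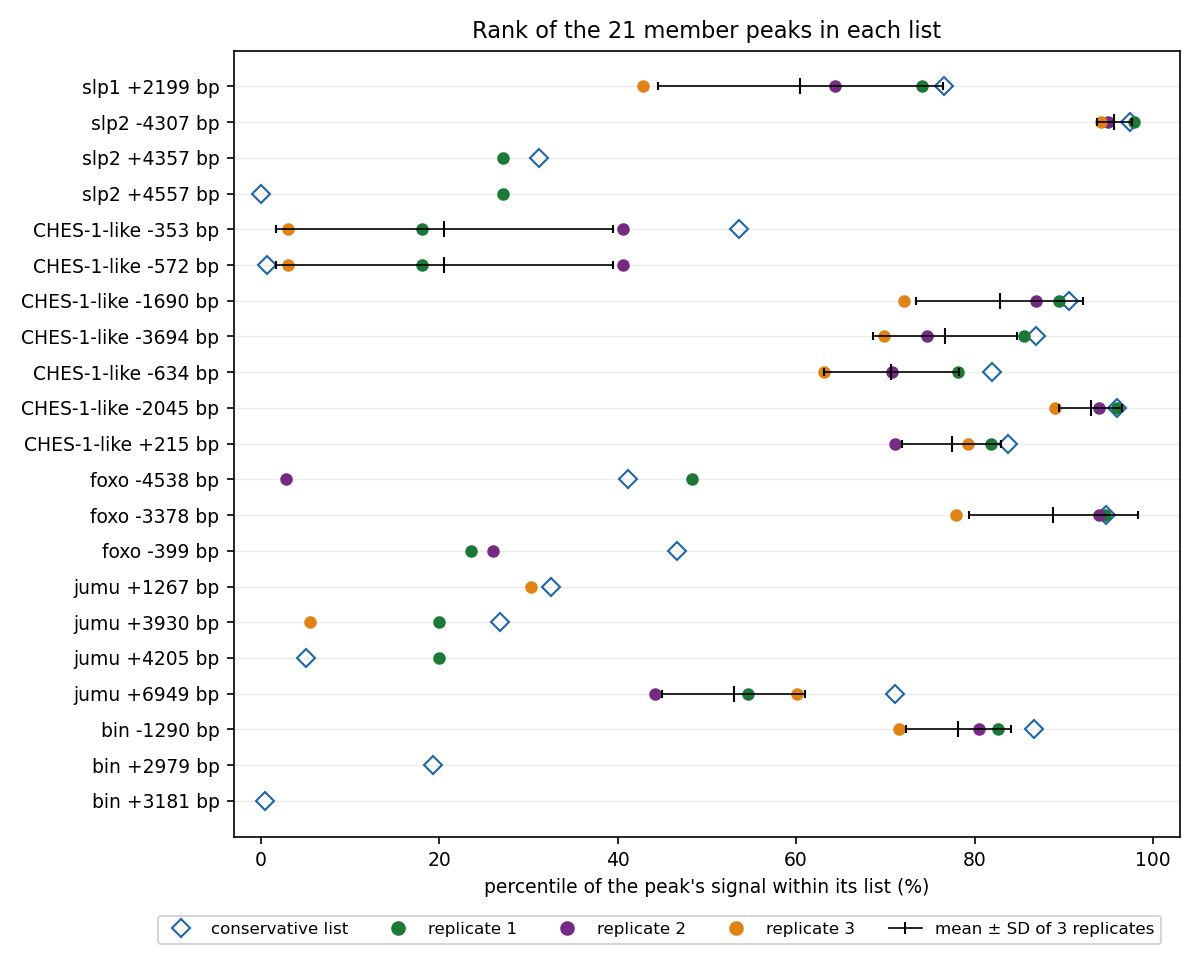
Percentile of each of the 21 member peaks by signal within its list (0 lowest, 100 highest; each peak named by its gene and distance from the nearest TSS), with diamonds for the conservative list, circles for replicates and the mean ± SD where all 3 replicates hold the peak. The slp2 peak 4307 bp upstream has the narrowest spread (SD 1.97). The CHES-1-like peak 353 bp from a TSS has the widest (SD 18.9), shared by the weak peak beside it. It lies below its conservative percentile of 53.6 in all 3 replicates, and most other peaks found in all 3 lie below theirs too.

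Across the members, the strongest peaks ordered as slp2, CHES-1-like, foxo, bin, slp1 and jumu in the conservative list. By mean percentile over replicates the same order held, at 95.7, 93.0, 88.8, 78.2, 60.5 and 53.0. Neighbours in this order differed by less than the larger SD of the pair for slp2 and CHES-1-like, for CHES-1-like and foxo, and for slp1 and jumu. The numbers of all genes with a stronger strongest peak were 88, 132, 173, 409, 671 and 807 in that order. The median strongest signal was 568.8 over the 6 members and 223.0 over the 2166 genes with a peak. A strongest signal tends to rise with the number of peaks of a gene, so these medians are not alike. Of the 6 members, all but slp1 had 3 or more peaks, as had 225 of the 2166 genes. Among these members, slp2 and bin reached 3 only with a weak summit beside a stronger one. The 225 genes were counted with such summits too. Over all 21 peaks the median signal was 194.4, close to the 182.9 of all conservative peaks.

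Signal and replicate support are not independent, since the file listing derives the conservative list from the alignments of the same 3 replicates. How they went together among the members is given as a description. The 12 peaks found in all 3 replicates included 11 with no stronger summit within the median peak width of 384 bp, and the lowest signal of these 11 was 194.4. Member peaks found in fewer replicates reached at most 174.1. At the 11 summits the replicate summits lay a median of 9 bp and at most 76 bp from the conservative summit. The 4 member peaks beside a stronger summit were at slp2, CHES-1-like, jumu and bin, with signals of 2.12, 3.60, 15.4 and 3.17. The one at CHES-1-like was also among the 12 found in all 3 replicates. These 4 were the only member peaks under 50. They shared their replicate summits with the stronger neighbour where any was found, so the 21 peaks stand for 17 separated summits. In the whole list, 12.3% of peaks had such a neighbour and 388 had a signal under 50.

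**Figure D4:**
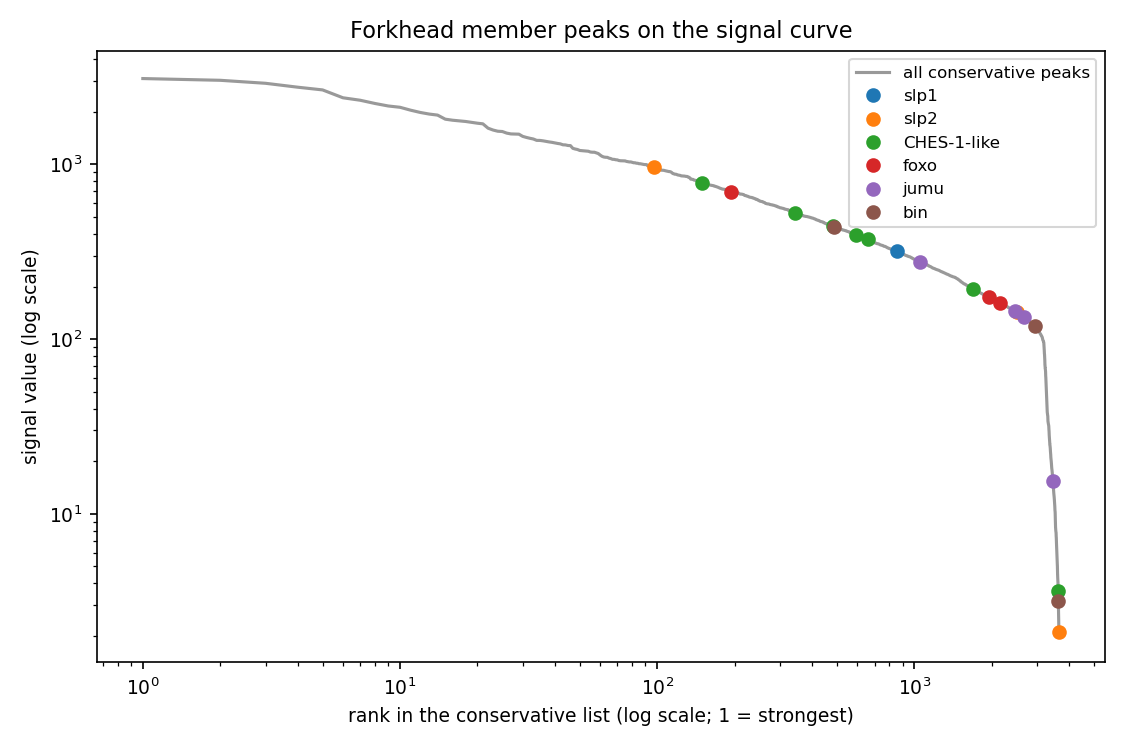
Signal of all 3650 conservative peaks against rank, both on log scales (grey line), with the 21 member peaks as coloured points. The slp2, CHES-1-like and foxo strongest peaks stand at ranks 97, 149 and 193, and 4 member peaks lie on the steep fall below a signal of 50.

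By position, 3 of the 21 peaks (14.3%) were promoter peaks, with a summit within 500 bp of a TSS, against 45.8% of the 3225 assigned peaks. These were the peak at the first CHES-1-like TSS, the one 353 bp from another CHES-1-like TSS, and the foxo peak 399 bp upstream. By annotation 12 member summits were in introns, 8 were intergenic and 1 was in a 5′ UTR. The median distance to the TSS was 2979 bp for the members and 661 bp for all assigned peaks. Each of the strongest peaks of the 6 members lay outside the promoter window.

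The sequence nearest to a member's TSS and within 10 kb of it summed to 118.0 kb, and it held 1.78 peaks per 10 kb. Over all genes the figure was 0.343 peaks per 10 kb. In the conservative list, jumu had 4.29, bin 4.21, CHES-1-like 2.56, slp2 1.93, foxo 1.43 and slp1 0.854 peaks per 10 kb, but this order did not hold in the replicate lists. In replicates 1, 2 and 3, CHES-1-like had 2.56, 2.20 and 2.20 per 10 kb, the highest of the 6 genes in replicates 1 and 2. The values for jumu were 2.15, 1.07 and 3.22, the highest in replicate 3, and bin had 1.40 in each. Without summits beside a stronger one, slp2 (1.28) was below foxo (1.43) in the conservative list. The single slp1 peak thus fell in 11.7 kb and the 7 of CHES-1-like in 27.3 kb. fkh had 17.2 kb of such sequence and no conservative peak, more than slp2 with 15.6 kb. Of the 6 strongest member peaks, 1 per gene, 5 were narrower than the median width, as were 21.8% of all conservative peaks, whose median signal was 491.2 against 157.3 for the rest.

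The other 9 forkhead genes were taken by the same rule. A conservative peak was assigned to 2 of them, beside 15.7% of all genes. FoxL1 had 1, 1931 bp upstream (signal 286.4, rank 1000), found in all 3 replicates, and croc itself had 1, 3345 bp upstream (signal 113.0), found in replicates 1 and 2. fd3F, fd19B, fd59A, fd96Ca, fd96Cb, fd102C and CG32006 had none in any of the 7 thresholded lists. No test was run between these genes and the 9 members, which were named with the results known.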

How the data were processed

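The deposited peak lists were made by the authors with the irreproducible discovery rate (IDR) on dm6, per the file listings. No aligner or peak caller is named in the sources used here. Each deposited peak has a signal, which is the caller's own value, and a score scaled from its IDR, and ranked lists also carry the deposited −log10 of the IDR. No read counts were used, so depth is unknown, and peaks are not independent samples. Which replicates a series list compared was found by matching its intervals: all conservative peaks were in a ranked list of 17254, of whose paired intervals 83.5% were found in the ranked list of replicate 1 and 86.5% in that of replicate 2.

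Summits (peak start plus offset) on the 6 chromosome arms were assigned to the nearest protein-coding TSS of annotation BDGP6.54 (Ensembl release 115) within 10 kb. Every conservative peak on these arms lay inside the arm of that name in the Release 6 sequence, from which the printed DNA was read. Summits within 250 bp in different lists were counted as shared, and summits within 500 bp of a TSS as promoter. The count of peaks present in all 3 further series lists required an identical interval and summit. The genes named were the 9 members, the other 9 forkhead genes, the 3 insulin pathway genes with the strongest peak (1 is not reported here), and neighbours of summits. The nearest genes given for FoxK, FoxP and fkh and the words GGTCACACT and AGTGTAC were chosen after their values were seen. Members and lists were chosen with earlier results of these data known. Assignment and matching were tested on simulated positions. Python 3.11.15, pandas 2.3.3, numpy 2.4.6 and matplotlib 3.10.9 were used. With 1 group there was no contrast and no test was run; alternatives were other distances, gene rules, lists, summit distances and motif windows, and leaving out each replicate.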

Additional observations from a re-analysis of the deposited data

How the results depend on the processing

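Under the alternative settings, 42 of the main counts stayed within 1.5 times the reported count and 11 did not. Percentiles of strongest peaks, peaks per 10 kb and the words chosen later were tallied apart. They were classed as unchanged 25 times and as moved 19 times. Members with a peak numbered 6 to 8 except under assignment by gene body, which gave 3 members and 13 peaks, since it leaves out intergenic summits. The 21 member peaks were 11 among the strongest 50% of the list and 12 to 14 without each replicate in turn, when only peaks shared with both other replicates were kept. In the further lists, with settings added after the data were seen, they were 21 to 23. Peaks shared with all 3 replicates numbered 20 when the longer ranked lists (24819, 17443 and 22972 peaks) were used, in place of 12. Promoter peaks numbered 1 within 250 bp and 5 within 1000 bp, in place of 3. Summits with TRTTTAY numbered 10 at 100 bp and 17 in whole intervals, both longer windows, and 0 for TGTTTAC, in place of 3. For the ranked lists, the other promoter distances and whole intervals, the shares over all conservative peaks are not given here. Those counts therefore say nothing particular to the members. No paired analysis was possible because the series has 1 group. Counts this small move by much when 1 peak changes, the lists give no depth, and peaks of a gene share a locus.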

Other observations

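The word AGTGTAC, noticed in the sequences after they were read, was within 100 bp of 3 of the 21 member summits, at slp2 upstream (chr2L:3832575-3832605), slp2 downstream (chr2L:3841219-3841249) and foxo 4538 bp upstream (chr3R:14052444-14052474). The stretches of 31 bp below are from the plus strand of dm6, with the word in capitals.
slp2 upstream peak: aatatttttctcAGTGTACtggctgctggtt
slp2 downstream peak: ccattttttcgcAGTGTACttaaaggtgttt
foxo peak 4538 bp upstream: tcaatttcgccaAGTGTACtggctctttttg
It was within 100 bp of 4.31% of all conservative summits, 1.07% of positions 500 bp to their left and 1.37% of transcript starts; within 50 bp it was at 1 member summit. On the plus strand it lay 25 to 100 bp to the left of a summit 17 times and to the right 68 times, and on the minus strand 67 times to the left and 9 times to the right. At 300 to 400 bp the plus-strand counts were 12 left and 7 right, and the minus-strand counts 18 and 14. All 3 member matches were on the plus strand, to the right of the summit. What this arrangement reflects was not tested.

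At CHES-1-like, lists other than the conservative one held further intronic summits: 1 in replicate 1 (signal 40.7, 1556 bp from its nearest TSS), 2 in the list comparing replicates 2 and 3 (92.7 and 17.0) and 2 in the list comparing replicates 1 and 3 (110.9 and 71.1). These are not all separate sites. The replicate 1 summit and the one of signal 71.1 lay within 250 bp of each other, as did those of 92.7 and 17.0.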
